A study of Saccharomyces cerevisiae with 6 samples.

Results

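The 8 protein-coding genes of *S. cerevisiae* that carry a small nucleolar RNA (snoRNA) inside an intron were followed in cells with and without the splicing factor Prp18p. The members, *ASC1*, *EFB1*, *TEF4*, *IMD4*, *NOG2*, *RPL7A*, *RPL7B* and *RPS22B*, were taken by gene name from junction tables of 281 annotated introns, and each of their 11 introns was kept apart. In the R64 annotation 8 of these introns contain a snoRNA, intron 1 of *RPL7A*, *RPL7B* and *RPS22B* contains none, and 0 introns of other genes in the tables contain one. The cells were *prp18Δupf1Δ* (*upf1Δ::HIS3MX6 prp18Δ::kanMX6*, 3 libraries) and *upf1Δ* (*upf1Δ::HIS3MX6*, 3 libraries; the marker is also written *HIS3* in the labels), both in BY4741 and grown in YPD to mid-log phase. Both strains lacked Upf1p, the helicase of nonsense-mediated decay, so that transcripts with premature stop codons are less readily degraded, and a strain with Upf1p was not analysed here. Deletion of *PRP18* and *UPF1* cannot be seen in these tables because neither gene has an intron. Whether the replicates were separate cultures is not stated in the sources used here, so that the p values reflect only how far these libraries scatter, which may be technical.

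SnoRNAs guide the chemical modification of ribosomal RNA, with C/D box snoRNAs directing ribose methylation and H/ACA box snoRNAs directing pseudouridylation. Most snoRNAs of budding yeast have their own promoters, whereas an intronic snoRNA is typically released when the host pre-mRNA is spliced, the lariat is opened by the debranching enzyme and exonucleases trim the linear intron. Splicing of a host thus yields an mRNA and a snoRNA. Prp18p acts in the second step of splicing, where the 3′-splice site (3′SS) is joined to the 5′ exon. The hosts other than *IMD4* serve the production or use of ribosomes. Rpl7ap and Rpl7bp are paralogous proteins of the large subunit and Rps22bp is a protein of the small subunit. Asc1p is the yeast counterpart of RACK1 on the small subunit, Efb1p and Tef4p are subunits of the nucleotide exchange factor for elongation factor eEF1A, Nog2p is a GTPase of the large subunit precursor, and Imd4p is an IMP dehydrogenase of guanine nucleotide synthesis.

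The snoRNA lies well inside each intron. *SNR24* (*ASC1*), *SNR18* (*EFB1*), *SNR38* (*TEF4*), *SNR54* (*IMD4*), *SNR39* (*RPL7A* intron 2) and *SNR59* (*RPL7B* intron 2) are C/D box snoRNAs of 78 to 102 nt, and *SNR191* (*NOG2*) and *SNR44* (*RPS22B* intron 2) are H/ACA box snoRNAs of 274 and 211 nt. They begin 79 to 181 nt after the 5′-splice site (5′SS) and end 105 to 226 nt before the end of the intron. The 11 introns measured 273 to 557 nt with a median of 409 nt, against a median of 165 nt over the 272 introns tested. All 11 begin with the consensus 5′SS, whereas the stretch from the branch site to the 3′SS varies. It is shown for the 3 genes with 2 introns, in which an intron with a snoRNA and one without can be compared, and for *IMD4*, which has the longest such stretch of the 11. The branch site and the 3′SS are in capitals.
*RPL7A* intron 1: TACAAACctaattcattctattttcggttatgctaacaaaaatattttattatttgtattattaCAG
*RPL7A* intron 2: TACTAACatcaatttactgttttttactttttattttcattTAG
*RPL7B* intron 1: TGCTAACatttttttcatttttgaaTAG
*RPL7B* intron 2: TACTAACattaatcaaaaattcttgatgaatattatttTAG
*RPS22B* intron 1: TACTAACgtttcaaaacatagtaatTAG
*RPS22B* intron 2: TACTAACatttactccttattTAG
*IMD4*: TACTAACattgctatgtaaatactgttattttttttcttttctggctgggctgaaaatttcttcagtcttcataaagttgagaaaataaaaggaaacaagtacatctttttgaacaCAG
The branch site is TACTAAC in 9 of the 11 introns, the exceptions being intron 1 of *RPL7A* and of *RPL7B*. Between the branch adenosine and the 3′SS trinucleotide lie 15 nt in *RPS22B* intron 2, the shortest distance, and 110 nt in *IMD4*. The 3′SS is CAG in *ASC1*, *IMD4* and *RPL7A* intron 1 and TAG in the others. All positions are those of R64, with intron 2 of *RPS22B* at chrXII:856575-857057 and the *EFB1* intron at chrI:142254-142619, both on the plus strand.

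The 6 libraries held 791819 to 1502384 reads of annotated junctions, of which the hosts took 5.55 to 6.76% in *prp18Δupf1Δ* and 6.98 to 8.33% in *upf1Δ*. Replicate 1 of each strain stood apart. Divided by its degrees of freedom, the chi-square between its annotated reads and those of replicates 2 and 3 was 111 and 111 in *prp18Δupf1Δ* and 112 and 122 in *upf1Δ*, whereas it was 5.69 in *prp18Δupf1Δ* and 14.2 in *upf1Δ* between replicates 2 and 3. Splicing efficiency (SE) is the number of annotated junction reads divided by the sum of these and the unspliced reads, where unspliced reads are the mean of the reads across the intact 5′SS and 3′SS. The 95% Wilson interval of an SE reached ± 5.52 percentage points in *NOG2*, the host with the fewest reads, and no more than ± 3.22 points in any other intron. These intervals cover counting error only.

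Annotated splicing was lower in *prp18Δupf1Δ* for every intron that holds a snoRNA. By edgeR's quasi-likelihood test on spliced and unspliced reads, with Benjamini-Hochberg adjustment over 272 introns, 8 of 8 snoRNA introns and 1 of 3 other host introns were lower and 0 were higher. Over all introns tested, 222 of 272 or 81.6% were lower and 0.0% higher. Without a model, every *prp18Δupf1Δ* library lay below every *upf1Δ* library in 9 of 11 host introns and above in 0, against 82.7% and 0.368% of all introns. The share of the hosts, 9 of 11, is close to this background. The median log2 change of the ratio of spliced to unspliced reads was -3.29 in the 8 snoRNA introns, -1.56 in 98 other introns of ribosomal protein genes (RPGs), -2.15 in 163 other non-RPG introns and -1.92 over all 272. In SE the order of the classes differed. The median SE in *upf1Δ* and *prp18Δupf1Δ* was 98.54% and 91.66% in the snoRNA introns and 96.65% and 92.12% in the other RPG introns. It was 91.5% and 72.3% in the other non-RPG introns, where the medians lay furthest apart, and 94.58% and 81.86% over all 272.

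**Figure D1:**
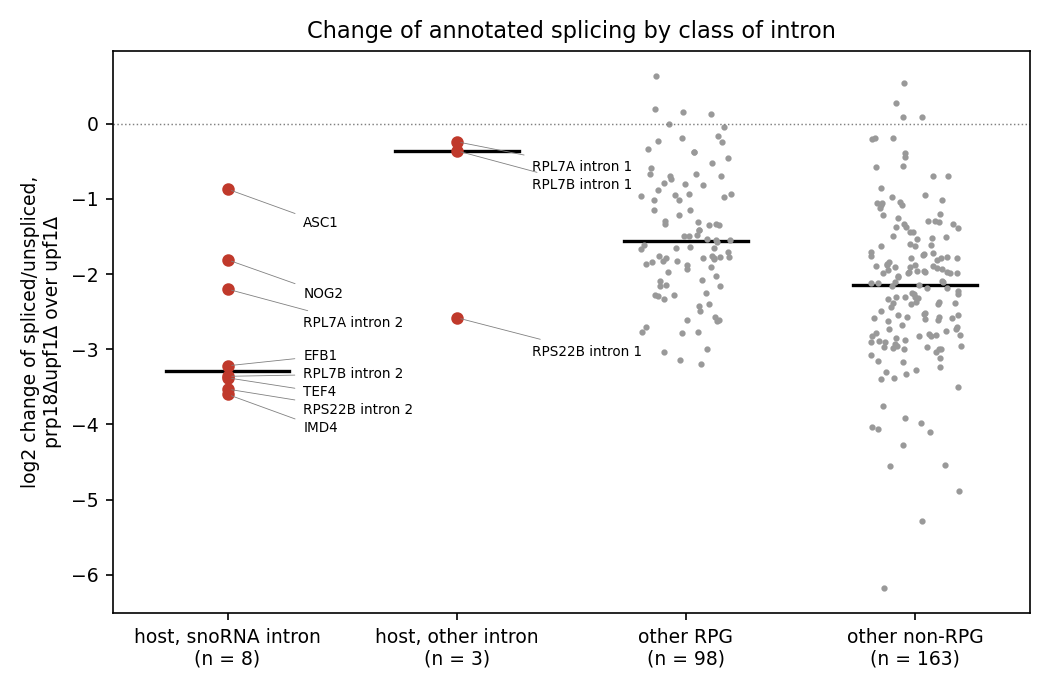
Log2 change of annotated splicing (spliced over unspliced reads, *prp18Δupf1Δ* over *upf1Δ*, y axis) for host introns with a snoRNA, host introns without one, other RPG introns and other non-RPG introns (x axis). Each point is an intron and each bar a median, and 5 of the 8 snoRNA introns lie between -3.22 and -3.60, while intron 1 of *RPL7A* and of *RPL7B* lie near 0.

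The largest loss of SE among the hosts was in *RPS22B*, in which both introns were affected. Its intron 2, which surrounds *SNR44*, had an SE of 75.4%, 61.2% and 54.7% in *prp18Δupf1Δ* and of 97.2%, 94.4% and 94.0% in *upf1Δ*. Intron 1, which holds no snoRNA but is known to carry a stem cleaved by the RNase III Rnt1p, had an SE of 37.7%, 41.8% and 34.8% in *prp18Δupf1Δ* and of 78.0%, 78.7% and 79.2% in *upf1Δ*. The strains did not overlap in either intron. The log2 change was -3.53 ± 0.536 for intron 2 (SE of the difference, n = 3 libraries per strain; adjusted p = 0.000342 from edgeR) and -2.58 ± 0.126 for intron 1 (adjusted p = 0.000119). Intron 1 was the least spliced host intron in both strains, with more unspliced than spliced reads in each *prp18Δupf1Δ* library.

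The paralogs *RPL7A* and *RPL7B* showed a contrast between their introns. Intron 2 of *RPL7A*, host of *SNR39*, had an SE of 97.8%, 96.3% and 96.2% in *prp18Δupf1Δ* and of 99.3%, 99.3% and 99.3% in *upf1Δ*. Intron 2 of *RPL7B*, host of *SNR59*, had an SE of 95.6%, 93.2% and 92.9% in *prp18Δupf1Δ* and of 99.6%, 99.3% and 99.3% in *upf1Δ*. In both, every *prp18Δupf1Δ* library lay below every *upf1Δ* library, and the log2 changes were -2.20 ± 0.259 (adjusted p = 0.000489) and -3.36 ± 0.341 (adjusted p = 0.000176 from edgeR). On the scale of unspliced transcripts, 6.10% of *RPL7B* intron 2 was unspliced in *prp18Δupf1Δ*, against 0.626% in *upf1Δ*. Neither intron 1 passed the test. Intron 1 of *RPL7A* had an SE of 99.9%, 99.4% and 99.6% in *prp18Δupf1Δ* and of 99.7%, 99.7% and 99.7% in *upf1Δ*, and intron 1 of *RPL7B* of 87.1%, 76.7% and 75.6% in *prp18Δupf1Δ* and of 88.1%, 81.0% and 82.0% in *upf1Δ*. The strains overlapped in both, with log2 changes of -0.24 (adjusted p = 0.672; -0.17 ± 0.624 from the per-library ratios) and -0.36 ± 0.439 (adjusted p = 0.413 from edgeR). These 2 results turned on *prp18Δupf1Δ* replicate 1. Without it both introns passed as lower, at -0.79 (adjusted p = 0.00797) and -0.71 (adjusted p = 0.0436), and without replicate 1 of both strains at -0.74 and -0.47, while *RPL7A* intron 1 was at 0.19 without *prp18Δupf1Δ* replicate 2.

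The exon stretches of the paralogs are nearly alike except before intron 1, which limits how well spliced reads can be assigned. In the 90 nt after the 3′SS, 79 positions were identical for intron 1 and 88 for intron 2, and 77 of the 90 nt before the 5′SS of intron 2 were identical, against 26 to 38 of 90 at the ends of the introns. Of the 90 nt before the 5′SS of intron 1, 34 were identical, so that the upstream side of its junction reads differs between the paralogs. With the reads of both paralogs added, intron 2 was spliced to 97.5%, 95.9% and 95.7% in *prp18Δupf1Δ* and to 99.3%, 99.3% and 99.3% in *upf1Δ*, without overlap. The summed intron 1 was spliced to 98.1%, 95.9% and 95.5% in *prp18Δupf1Δ* and to 97.4%, 95.6% and 95.5% in *upf1Δ*, with overlap. The summed reads thus also differed between the introns, but the sum depends on the mix of the paralogs. Summed intron 1 changed by 0.19 ± 0.489 in log2, whereas intron 1 of *RPL7A* and of *RPL7B* alone changed by -0.17 and -0.36. Total reads of intron 1 changed by 0.07 in *RPL7A* and by -0.55 in *RPL7B*. The part of this mix in the summed contrast was not tested.

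Within each of these 3 genes the intron with the snoRNA could be compared with the one without. The log2 ratio of spliced to unspliced reads of intron 2 minus that of intron 1 was -3.23 ± 0.659 in *prp18Δupf1Δ* and -1.20 ± 0.176 in *upf1Δ* for *RPL7A* (SD, n = 3). For *RPL7B* it was 1.94 ± 0.228 in *prp18Δupf1Δ* and 4.95 ± 0.00319 in *upf1Δ*. The strains did not overlap in these 2 genes, and the differences of -2.02 ± 0.394 and -3.01 ± 0.132 each had p = 0.1 by an exact two-sided permutation test, the smallest that 3 against 3 libraries allow. In *RPS22B* the values were 1.55 ± 0.682 in *prp18Δupf1Δ* and 2.50 ± 0.670 in *upf1Δ*, and they overlapped (difference -0.95 ± 0.552, exact p = 0.3). In SE the order in *RPS22B* was reversed, with -40.5 points in intron 1 and -31.4 points in intron 2. By log2 change, intron 2 fell more than intron 1 in 3 of the 3 host genes and in 2 of 7 other genes with 2 annotated introns. In those 7 genes, intron 1 was lower in 7 cases (median -1.99) and intron 2 in 4 (median -1.33).

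Among the hosts that are not RPGs, the elongation factor subunits lost splicing to a similar degree. *EFB1*, host of *SNR18*, had an SE of 89.98%, 86.51% and 85.23% in *prp18Δupf1Δ* and of 98.6%, 98.4% and 98.4% in *upf1Δ*. *TEF4*, host of *SNR38*, had an SE of 95.6%, 92.8% and 92.6% in *prp18Δupf1Δ* and of 99.5%, 99.4% and 99.2% in *upf1Δ*. The strains were separate in both, with log2 changes of -3.22 ± 0.196 (adjusted p = 0.000119) and -3.38 ± 0.306 (adjusted p = 0.00016 from edgeR). *IMD4*, host of *SNR54*, showed the largest log2 change of the 11 introns, -3.60 ± 0.259 (adjusted p = 0.000117). Its SE was 88.9%, 83.3% and 83.5% in *prp18Δupf1Δ* and 98.8%, 98.4% and 98.6% in *upf1Δ*, again without overlap.

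*NOG2* and *ASC1* had the smallest log2 changes among the snoRNA introns, although in SE the loss of *NOG2*, -7.26 points, was larger than that of *TEF4*, -5.70 points. *NOG2*, host of *SNR191*, had an SE of 86.2%, 90.9% and 91.9% in *prp18Δupf1Δ* (95% Wilson intervals of ± 5.52, 4.62 and 4.45 points) and of 97.6%, 96.5% and 96.6% in *upf1Δ* (± 2.22, 1.78 and 1.68 points). It rested on 128 to 141 spliced reads in *prp18Δupf1Δ* and 205 to 441 in *upf1Δ*, and its log2 change was -1.81 ± 0.307 (adjusted p = 0.0027 from edgeR). *ASC1*, host of *SNR24*, had an SE of 96.7%, 94.8% and 94.6% in *prp18Δupf1Δ* and of 98.2%, 97.0% and 97.0% in *upf1Δ*. The gap between the nearest *ASC1* libraries of the 2 strains was narrow, and the change of -0.87 ± 0.337 passed with an adjusted p of 0.0465. It was lost on leaving out any library but *prp18Δupf1Δ* replicate 1, with adjusted p values of 0.0765 to 0.161.

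**Figure D2:**
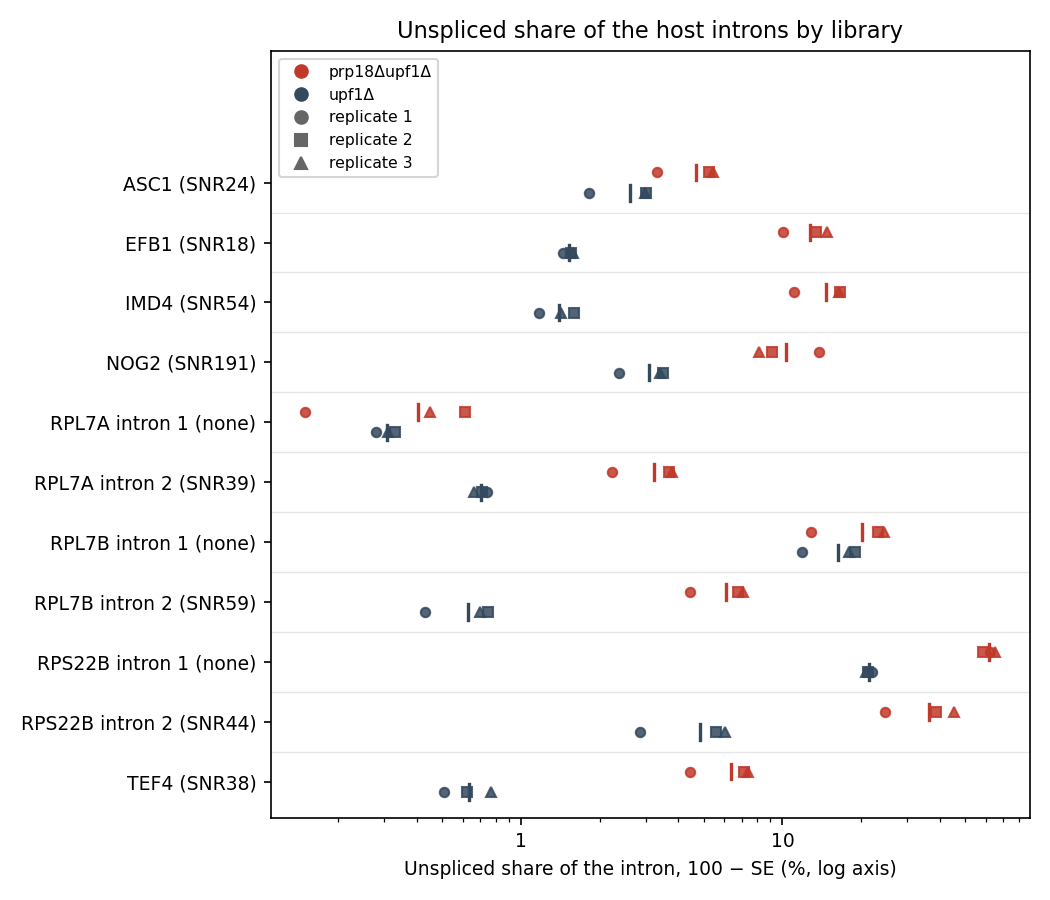
Unspliced share of each host intron, 100 minus SE in percent on a log axis, with *prp18Δupf1Δ* above *upf1Δ* in each row, a symbol per replicate and a tick at the mean of 3 libraries. The strains are separate in 9 introns and overlap in intron 1 of *RPL7A* and of *RPL7B*, and the snoRNA of each intron stands in parentheses.

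The hosts were set against introns they resemble. Of 117 other introns of at least 250 nt, 85 were lower, with a median log2 change of -1.57, and of 95 such introns in RPGs 72 were lower, also with a median of -1.57. The snoRNA introns lay below these medians in 7 of 8 cases, all but *ASC1*. Of the host introns, 9 of 9 with the branch site TACTAAC and 0 of 2 with another one were lower, and among the other introns 178 of 222 with TACTAAC and 35 of 39 with another branch site were lower. The part of the branch site in the result was not tested. Of 12 introns in 11 further genes of RNA processing and modification, a list that includes *POP8*, *LSM2*, *LSM7*, *TAN1* and *YRA1*, 10 were lower and 0 higher with a median of -2.46. The intron of *DBP2*, an RNA helicase, at 0.09 (adjusted p = 0.769) and intron 2 of *TAD3*, a tRNA deaminase subunit, at -1.06 (adjusted p = 0.0847) did not pass. *CBC2* of this list was not analysed here.

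The ratio can fall because unspliced reads rise, spliced reads fall, or both, and the hosts differed in this. Reads were scaled to the total of all intron-containing transcripts (trimmed mean of M values, TMM) and are given as CPM. In *TEF4* the unspliced reads were 160, 237 and 303 CPM in *prp18Δupf1Δ* and 14.6, 19.1 and 32.1 CPM in *upf1Δ*, a 10.6-fold higher mean, while the spliced reads averaged 3434 ± 349 CPM in *prp18Δupf1Δ* and 3344 ± 686 CPM in *upf1Δ* (SD, n = 3). Here the strains were apart only in unspliced reads. *IMD4* differed on both sides, with unspliced reads of 76.0, 147 and 148 CPM in *prp18Δupf1Δ* and 23.8, 34.4 and 30.9 CPM in *upf1Δ*, and spliced reads of 610, 735 and 751 CPM in *prp18Δupf1Δ* and 2013, 2133 and 2123 CPM in *upf1Δ*. Its spliced reads in *prp18Δupf1Δ* were 0.334 of their *upf1Δ* mean. In *RPS22B* the mean of spliced reads was 0.295 (intron 1) and 0.397 (intron 2) of that in *upf1Δ*, and in *EFB1* 0.551. Unspliced reads were higher in every *prp18Δupf1Δ* library than in any *upf1Δ* library for all 8 snoRNA introns, by 1.42-fold in *ASC1* to 10.6-fold in *TEF4*. With intron 1 of *RPS22B* this made 9 of 11 host introns higher and 0 lower without overlap, against 75.0% and 1.1% of all introns, and spliced reads were lower without overlap in 9 of 11 and higher in 0, against 37.5% and 11.4%. The median log2 ratio over all 272 introns was 1.73 for unspliced and -0.21 for spliced reads. In intron 1 of *RPL7B* the mean of unspliced reads was 0.865 of that in *upf1Δ*, with overlap, while its spliced reads were 0.647 of it without overlap. These ratios are given as a description and were not tested.

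**Figure D3:**
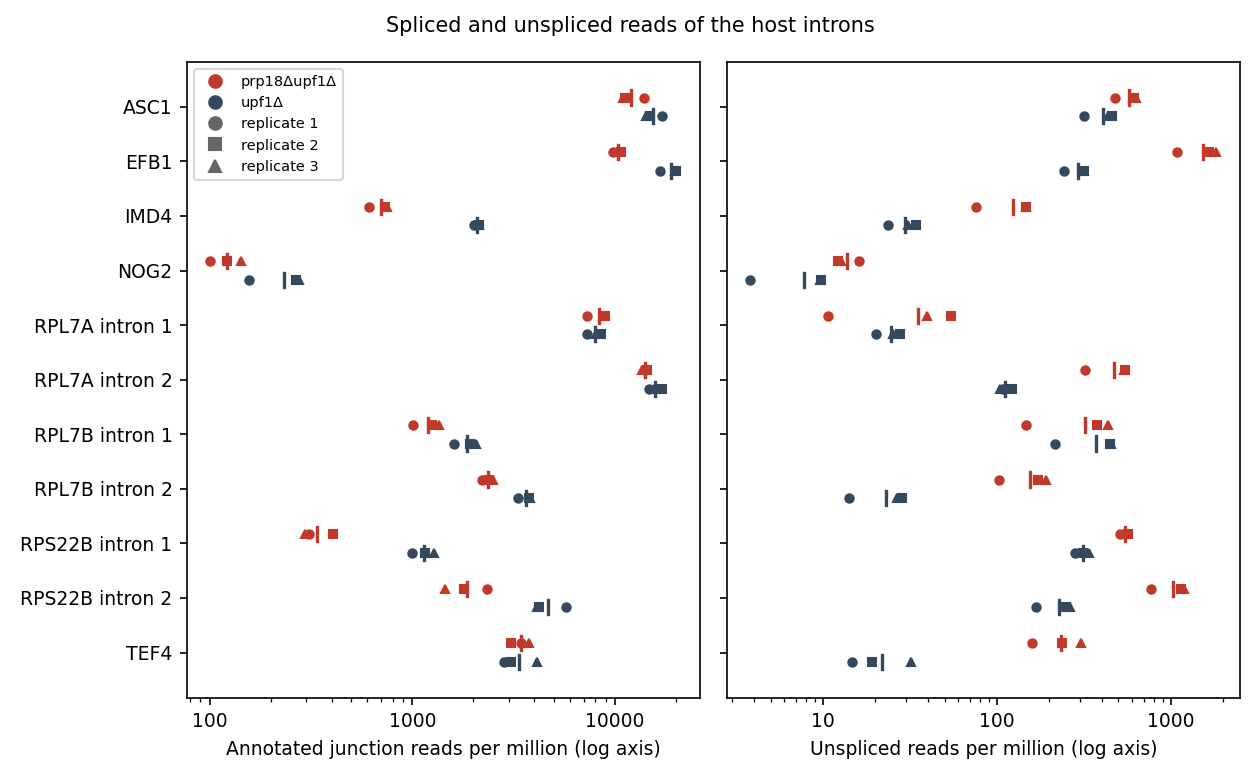
Annotated junction reads (left) and unspliced reads (right) of each host intron, in TMM-scaled CPM on log axes, with *prp18Δupf1Δ* above *upf1Δ*, a symbol per replicate and a tick at the mean of 3 libraries. Unspliced reads are shifted to higher values in all 8 snoRNA introns, while spliced reads of *TEF4* and of *RPL7A* intron 1 overlap between the strains.

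Total reads, spliced plus unspliced, were lower in *prp18Δupf1Δ* for *IMD4*, *EFB1*, *RPS22B* and intron 2 of *RPL7B*. By edgeR, 5 of 11 host introns, in 4 genes, were lower and 0 higher, against 11.0% lower and 16.2% higher over all 272 introns. *IMD4* had 686, 882 and 899 CPM in *prp18Δupf1Δ* and 2037, 2167 and 2155 CPM in *upf1Δ*, a log2 change of -1.37 (adjusted p = 0.00124). *EFB1* had 10884, 12318 and 12409 CPM in *prp18Δupf1Δ* and 16822, 20352 and 20028 CPM in *upf1Δ* (-0.68, adjusted p = 0.00662). No library of 1 strain reached into the range of the other in these 2 genes. Intron 1 and intron 2 of *RPS22B* gave -0.72 (adjusted p = 0.00939) and -0.76 (adjusted p = 0.00842), and intron 2 of *RPL7B* gave -0.53 (adjusted p = 0.0113 from edgeR). *TEF4* (0.12, adjusted p = 0.617), intron 1 of *RPL7A* (0.07, adjusted p = 0.717) and intron 2 of *RPL7A* (-0.13, adjusted p = 0.382) overlapped between the strains. *NOG2* (-0.83, adjusted p = 0.055), intron 1 of *RPL7B* (-0.55, adjusted p = 0.0876) and *ASC1* (-0.33, adjusted p = 0.0974) did not pass, although their libraries did not overlap. Counted by overlap alone, 8 of 11 host introns were lower in every *prp18Δupf1Δ* library and 0 higher, against 18.4% and 22.8% of all introns. With the replicate number as a block these 3 passed too, which made 8 of 11 lower and 0 higher, against 28.3% and 30.1% of all introns in the blocked fit. The calls of *EFB1*, *RPS22B* intron 1 and *RPL7B* intron 2 were lost without *upf1Δ* replicate 3, with adjusted p values of 0.0557 to 0.0975, those of *RPS22B* intron 1 and *RPL7B* intron 2 without *prp18Δupf1Δ* replicate 3, and that of *RPL7B* intron 2 also without replicate 2 of either strain, with annotated reads alone and without TMM. Since the libraries come from whole cultures, fewer cells that express a gene and fewer transcripts per cell cannot be told apart.

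Alternative junctions were sparse in most hosts. Of 256 alternative junctions listed in the 8 genes, 42 passed the filters on overhangs, mismatches and read number, as did 886 of 4993 in the series. Their use is given as FAnS, the reads of the junction as a percentage of the annotated junction reads of the same intron. By edgeR, 6 of 28 alternative 3′SS rose and 1 fell, against 32.0% and 7.65% over all genes. Of 6 alternative 5′SS in hosts 2 rose and 0 fell, against 2.23% and 26.3%, and of 8 junctions with both sites changed 0 rose and 0 fell, against 1.4% and 3.5%. In all, 8 of 42 rose and 1 fell, against 21.0% and 10.7%. The filter on read number counts all 6 libraries together. A junction with 0 reads in *upf1Δ* thus passed it through *prp18Δupf1Δ* alone and could only rise, in hosts as in other genes. A junction with 1 read in *upf1Δ* passed it mostly through *prp18Δupf1Δ*, so that its rise was favoured by the filter. The 8 junctions that rose were in *EFB1* (6), *ASC1* (1) and *RPS22B* (1), and the 1 that fell was in *RPS22B* intron 1. Of the 4 alternative 5′SS that rose in the whole series, 2 were in these introns, both between the snoRNA and the annotated 3′SS, and the other 2 were 4 and 14 nt upstream of the annotated 5′SS of *ATG38* and *BET4*. Of 73 alternative 5′SS at least 100 nt inside an intron, 33 fell, and the 2 that rose were the host sites, of which the *EFB1* site had 1 read in *upf1Δ*.

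The introns defined by these 2 inner 5′SS are shown with the 10 nt before them. The alternative 5′SS, the branch site and the annotated 3′SS are in capitals. These introns share the branch site and the 3′SS of the annotated intron but begin after the snoRNA.
*RPS22B* intron 2, 5′SS +414, chrXII:856979-857057: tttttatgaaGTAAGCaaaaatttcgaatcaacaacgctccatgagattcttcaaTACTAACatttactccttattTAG
*EFB1*, 5′SS +230, chrI:142474-142619: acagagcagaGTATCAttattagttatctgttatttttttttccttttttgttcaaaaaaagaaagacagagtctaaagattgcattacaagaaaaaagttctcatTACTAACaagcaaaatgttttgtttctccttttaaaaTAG
The annotated 5′SS with 10 nt of exon on the left and intron on the right are:
*RPS22B* intron 2, annotated 5′SS: caaaagcatgGTATGTtccaactatt
*EFB1*, annotated 5′SS: acattgaaggGTATGTtccgatttag
Numbers after 5′SS and 3′SS count nucleotides from the annotated site, positive downstream.

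The site at +414 of *RPS22B* intron 2 lies 68 nt after the end of *SNR44* and defines an intron of 69 nt, in which 39 nt separate the 5′SS hexamer from the branch site. It had 923, 631 and 653 reads in *prp18Δupf1Δ* and 202, 238 and 263 reads in *upf1Δ*, while the annotated junction of the same intron had 2962, 1988 and 1417 reads in *prp18Δupf1Δ* and 7475, 6525 and 6586 in *upf1Δ*. Its FAnS was 31.2%, 31.7% and 46.1% in *prp18Δupf1Δ* and 2.7%, 3.65% and 3.99% in *upf1Δ*. The strains were far apart, with a log2 change of 3.39 (adjusted p = 2.23e-20 from edgeR) that passed under all 12 alternatives tried. Of the reads joined to the annotated 3′SS of this intron, counting the +414 and the annotated junction, the inner site took 23.8%, 24.1% and 31.5% in *prp18Δupf1Δ* (95% Wilson intervals 22.4 to 25.1%, 22.5 to 25.8% and 29.6 to 33.6%) and 2.63%, 3.52% and 3.84% in *upf1Δ* (2.30 to 3.01%, 3.11 to 3.99% and 3.41 to 4.32%). The rise was not only relative to the annotated junction, since TMM-scaled reads of the site averaged 655 ± 81.1 CPM in *prp18Δupf1Δ* and 158 ± 5.47 CPM in *upf1Δ* (SD, n = 3), a 4.15-fold higher mean. With the reads of alternative junctions added, an alternative chosen after seeing the data, total reads of intron 2 changed by -0.53 (adjusted p = 0.0298) in place of -0.76.

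The junction was seen by both aligners in 3266 of its 3443 gapped alignments. Where these began shows what was joined. In *prp18Δupf1Δ* 686 of 2587 gapped alignments (26.5%) and in *upf1Δ* 194 of 856 (22.7%) began at or before the last base of *SNR44*, so that these molecules held the end of the snoRNA, the sequence behind it and the next exon. The remaining ones began between *SNR44* and the site. In both strains 0 began before the first base of *SNR44*, so that these reads do not show whether the whole snoRNA was kept. A transcript that keeps the first 414 nt of the intron can also add to the reads across the intact annotated 5′SS, and the tables give only the mean of both boundaries, so that its part in the unspliced reads was not tested.

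**Figure D4:**
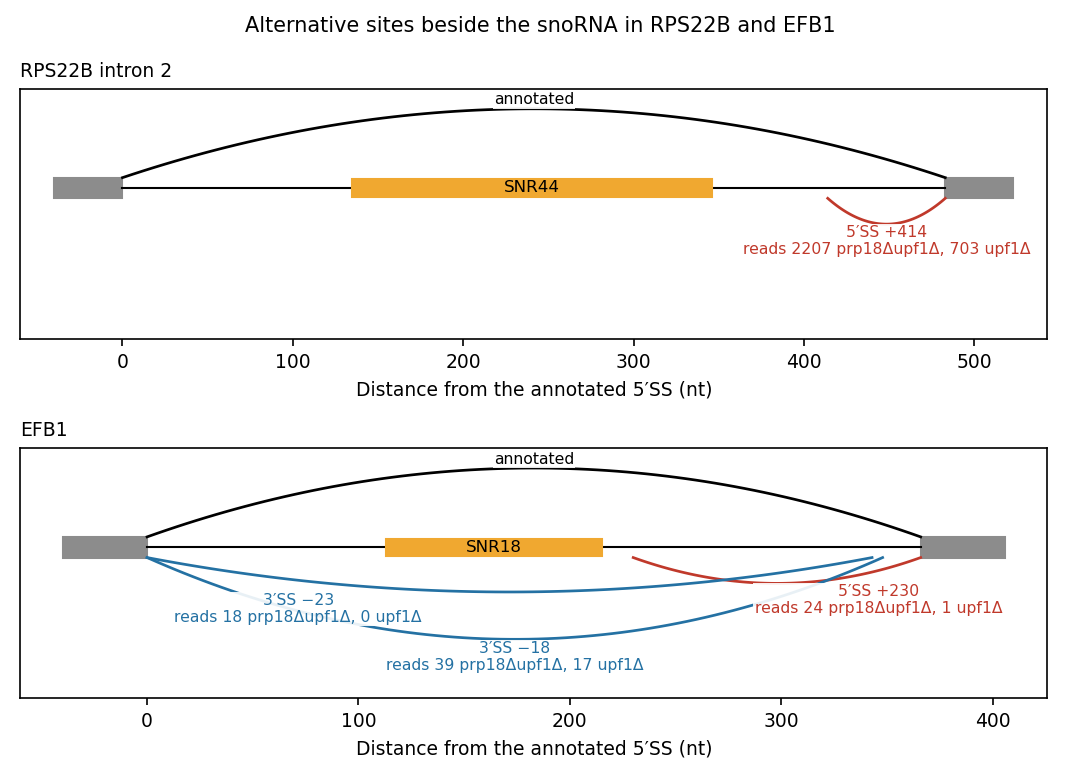
Intron 2 of *RPS22B* and the *EFB1* intron to scale, in nt from the annotated 5′SS, with the snoRNA in orange, the ends of the exons in grey, the annotated junction above and alternative junctions below the line. Reads are sums over 3 libraries per strain, and in both genes the red junction begins after the snoRNA.

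In *EFB1* the inner 5′SS at +230 lies 15 nt after the end of *SNR18* and defines an intron of 136 nt. It was rare, with 12, 4 and 8 reads in *prp18Δupf1Δ* and 1, 0 and 0 reads in *upf1Δ*. Of its 34 gapped alignments 33 were in *prp18Δupf1Δ*, so that it passed the filter on read number through that strain alone. A rise was thus favoured by the filter, and the p value below does not stand apart from it. The FAnS of each *prp18Δupf1Δ* library, 0.0970%, 0.0339% and 0.0770%, lay above that of every *upf1Δ* library, whose counts of 0 in replicates 2 and 3 allow FAnS of up to 0.00971% and 0.00949%. Summed over libraries, FAnS was 58.4-fold higher in *prp18Δupf1Δ* (95% counting interval 9.52 to 2400, adjusted p = 3.48e-06 from edgeR), and the call held under all 12 alternatives. The size of this ratio rests on the 1 read of *upf1Δ* replicate 1, and the fitted log2 change of 5.34 ranged over 4.81 to 7.15 when 1 library was left out, with 7.15 reached without that library. Of its gapped alignments, 31 of 33 in *prp18Δupf1Δ* and 1 of 1 in *upf1Δ* began at or before the last base of *SNR18*, and 0 before its first base. The leftmost began at -87 nt from the site, while *SNR18* is 102 nt long and ends 15 nt before it. Reads of this length could not reach its first base, so that they do not show whether the whole snoRNA was kept. The other 2 alternative 5′SS of *EFB1*, at +31 before and at +205 inside *SNR18*, had 0 and 2 reads in *prp18Δupf1Δ* and 10 and 6 reads in *upf1Δ* and did not pass.

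*EFB1* also had 5 alternative 3′SS that passed the filters, and all 5 rose. They lie 24, 23, 18, 15 and 13 nt before the annotated 3′SS, none ends in AG, and they fall between the branch site and the annotated 3′SS shown here with 2 of the alternative sites in capitals.
*EFB1*, annotated 3′SS: tgtttctccttttaaaaTAGtactgctgtt
*EFB1*, 3′SS -18: ctaacaagcaaaatgttTTGtttctccttt
*EFB1*, 3′SS -23: cattactaacaagcaaaATGttttgtttct
The TTG at -18 was the most used, with 12, 15 and 12 reads in *prp18Δupf1Δ* and 1, 5 and 11 reads in *upf1Δ*. Its FAnS was 0.0970%, 0.127% and 0.115% in *prp18Δupf1Δ* and 0.00463%, 0.0162% and 0.0348% in *upf1Δ*, without overlap (5.58-fold in the summed reads, 95% counting interval 3.08 to 10.5, adjusted p = 0.000212 from edgeR). The ATG at -23 had 3, 6 and 9 reads in *prp18Δupf1Δ* and 0, 0 and 0 reads in *upf1Δ*. Its FAnS was at least 10.7-fold higher by the lower limit of the 95% counting interval (adjusted p = 7.89e-06 from edgeR). By the same limit the AAT at -24 (3, 4 and 3 reads in *prp18Δupf1Δ*, 0 in *upf1Δ*) was at least 5.45-fold and the TTT at -15 (2, 2 and 2 reads in *prp18Δupf1Δ*, 0 in *upf1Δ*) at least 2.87-fold higher. The TCT at -13 had 1, 4 and 4 reads in *prp18Δupf1Δ* and 0, 1 and 0 in *upf1Δ*, a ratio of 21.9 (95% counting interval 3.03 to 960). The calls at -15 and -13 were lost without replicate 1 of both strains (adjusted p = 0.0772 at -15) and without *prp18Δupf1Δ* replicate 3 (adjusted p = 0.0673 at -13). With a minimum of 20 gapped alignments the sites at -24, -15 and -13 had too few to be tested. The sites at -24, -23 and -15, with 0 reads in *upf1Δ*, passed the filter on read number through *prp18Δupf1Δ* alone and could only rise. The site at -13, with 1 read in *upf1Δ*, passed it mostly through *prp18Δupf1Δ*. Together the 5 sites took 0.170%, 0.262% and 0.288% of the spliced reads at the annotated 5′SS in *prp18Δupf1Δ* and 0.00463%, 0.0194% and 0.0348% in *upf1Δ*.

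**Figure D5:**
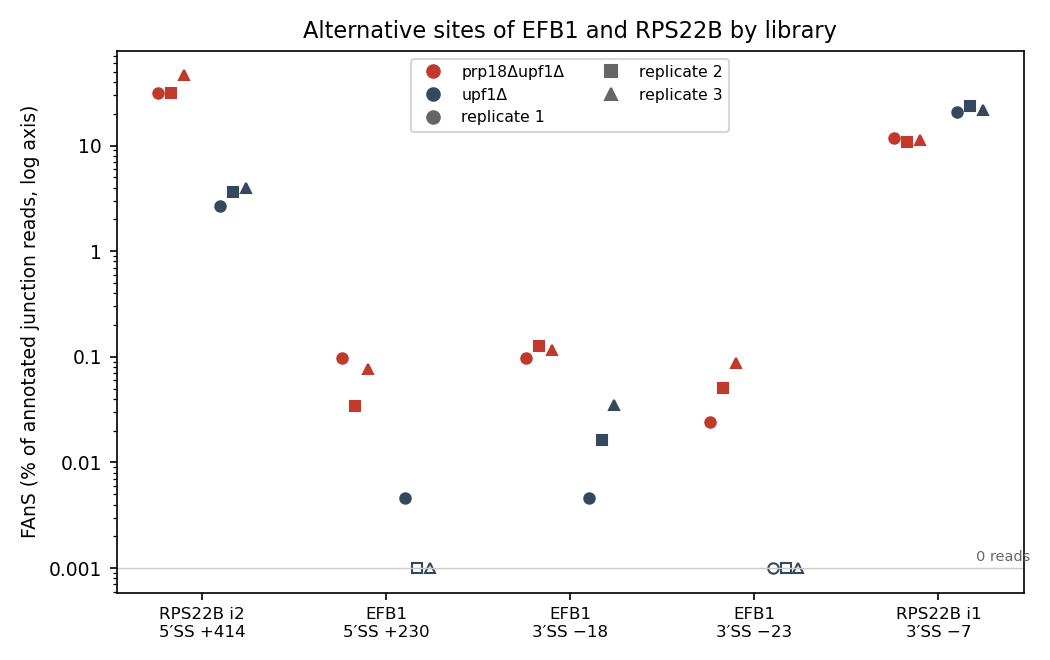
FAnS (y axis, percent of annotated junction reads, log axis) of 5 alternative sites of *EFB1* and *RPS22B* in each library, with *prp18Δupf1Δ* left of *upf1Δ*, a symbol per replicate and open symbols for libraries with 0 reads. *RPS22B* 5′SS +414 lies at 31.2% to 46.1% in *prp18Δupf1Δ* and 2.7% to 3.99% in *upf1Δ*, the *EFB1* sites stay under 0.2%, and *RPS22B* 3′SS -7 is lower in *prp18Δupf1Δ*.

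Intron 1 of *RPS22B* has 2 TAG near its end, and the upstream one, 7 nt before the annotated 3′SS, was the most used alternative 3′SS of the hosts.
*RPS22B* intron 1, annotated 3′SS: tttcaaaacatagtaatTAGgtaaaaaatg
*RPS22B* intron 1, 3′SS -7: actaacgtttcaaaacaTAGtaattaggta
It had 46, 49 and 33 reads in *prp18Δupf1Δ* and 270, 420 and 442 reads in *upf1Δ*. Its FAnS of 11.7%, 10.9% and 11.3% in *prp18Δupf1Δ* was below the 20.8%, 23.5% and 21.5% of *upf1Δ* in every library. The log2 change was -0.95 (adjusted p = 0.00471 from edgeR), but the call was lost by DESeq2 (adjusted p = 0.155) and without the filters on overhangs and mismatches (adjusted p = 0.106). Relative to annotated plus unspliced reads the change was -1.99 (adjusted p = 6.61e-07 from edgeR). As a share of the reads at the 2 TAG sites it was 10.5%, 9.84% and 10.2% in *prp18Δupf1Δ* (95% Wilson intervals 7.97 to 13.7%, 7.52 to 12.8% and 7.32 to 13.9%) and 17.2%, 19.1% and 17.7% in *upf1Δ* (15.4 to 19.1%, 17.5 to 20.7% and 16.3 to 19.3%). In *RPS22B* the alternative site of intron 1 thus fell while that of intron 2 rose.

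The other hosts gave few calls. The AGG of *ASC1*, 1 nt downstream of its annotated 3′SS, rose. It had 3, 3 and 1 reads in *prp18Δupf1Δ* and 0, 0 and 0 in *upf1Δ*. Its FAnS was at least 2.41-fold higher by the lower limit of the counting interval (adjusted p = 0.00798 from edgeR). With 0 reads in *upf1Δ*, the site passed the filter on read number through *prp18Δupf1Δ* alone and could only rise. The call was lost without replicate 1 of both strains (adjusted p = 0.117). With a minimum of 20 gapped alignments the site, with 8, was not tested. The most used alternative junction of *ASC1* was a shift of both sites by 2 nt (FAnS 0.107 ± 0.0623% in *prp18Δupf1Δ* and 0.0929 ± 0.0403% in *upf1Δ*), an intron of annotated length placed by BBMap alone in all 122 gapped alignments. Such shifted pairs made up 6 of the 42 junctions. In *RPL7A* intron 1 the CAG at +17 in the exon had 5, 10 and 6 reads in *prp18Δupf1Δ* and 15, 24 and 16 in *upf1Δ*. Its FAnS was lower in every *prp18Δupf1Δ* library, yet the change of -1.02 did not pass (adjusted p = 0.0832) except with a minimum of 20 gapped alignments (adjusted p = 0.0443).

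In *IMD4* the only site that passed the filters was a TAG at -244, which lies inside *SNR54*, near its end, and would split the snoRNA.
*IMD4*, 3′SS -244: gtgatcaaacgatcttgTAGagaactttta
It had 1, 2 and 2 reads in *prp18Δupf1Δ* and 7, 6 and 4 in *upf1Δ*. Relative to the annotated junction, which itself had fewer reads in *prp18Δupf1Δ*, FAnS was 0.216 ± 0.0752% in *prp18Δupf1Δ* and 0.189 ± 0.0748% in *upf1Δ* (SD, n = 3), and the libraries overlapped (adjusted p = 0.879 from edgeR). *TEF4* had only an AGT at +1 (FAnS 0.0835 ± 0.0618% in *prp18Δupf1Δ* and 0.0724 ± 0.0407% in *upf1Δ*) and *NOG2* an AAG at -3, with 3 reads in *prp18Δupf1Δ* and 3 in *upf1Δ*. In *RPL7B* intron 2 an AAG at +9 had FAnS of 0.111 ± 0.0693% in *prp18Δupf1Δ* and 0.107 ± 0.0507% in *upf1Δ*. The most used alternative junction of *RPL7A* intron 2 was a shifted pair at 0.0283 ± 0.0163% in *prp18Δupf1Δ* and 0.0310 ± 0.0114% in *upf1Δ*. All of these overlapped between the strains. Skipping of exon 2, from the 5′SS of intron 1 to the 3′SS of intron 2, was seen in *RPL7B* with 3, 2 and 3 reads in *prp18Δupf1Δ* and 3, 0 and 3 in *upf1Δ* (log2 change 1.43, adjusted p = 0.211 from edgeR), where FAnS did not overlap but did not pass. In *RPL7A* it had 0, 1 and 3 reads in *prp18Δupf1Δ* and 0, 0 and 0 in *upf1Δ*, and in *RPS22B* 1 read in *upf1Δ* replicate 1. Both were below the filter on read number and were not tested. The loss of annotated splicing in *TEF4*, *IMD4* and intron 2 of *RPL7A* and *RPL7B* was thus not matched by alternative junction reads that passed the test.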

How the data were processed

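Poly(A) RNA libraries (TruSeq stranded mRNA) of 3 *prp18Δupf1Δ* and 3 *upf1Δ* samples were used, grouped by the titles in GEO. The authors trimmed reads with cutadapt 1.18, aligned them to R64 by 2 programs, BBMap and STAR 2.7.0d, kept the best alignment of each read pair and deposited raw junction counts, without normalization or pooling. The deposited unspliced reads are an estimated count, made by the authors as reads across the intact 5′SS and 3′SS divided by 2. The deposited SE is a fraction for annotated junctions and a ratio for alternative ones, and the deposited FAnS is a ratio; SE and FAnS followed from the counts in 12588 of 12588 and 12550 of 12550 entries. The deposited overhang and aligner columns were used for filters. Where bases beside a junction are identical, the authors placed it at the 5′SS closest to the consensus. The sequences are from the R64 genome and the snoRNAs from its annotation, and 5274 of 5274 junctions matched that genome.

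Annotated splicing was tested by edgeR 4.0.16 (R 4.3.3) with a term per library on annotated junction reads and unspliced reads (2 times the deposited mean; 10 or more reads per intron and at least 1 in each library). Alternative junctions were tested against annotated reads after filters on the longest perfectly matched overhang (10 bp on the upstream and 40 bp on the downstream side), 50% of reads without a mismatch within 10 bp, and 6 gapped reads over the 6 libraries. Total reads were tested with TMM scaling. Adjusted p values are Benjamini-Hochberg values over all introns or junctions, with a threshold of 0.05. Errors of log2 changes are standard errors from the per-library log2 ratios with a pseudocount of 0.5. The exact permutation test used all 20 assignments. DESeq2 1.42.0, limma 3.58.1 and the other alternatives are compared in the closing section. The same-numbered libraries of the strains deviated together (r of 0.583, 0.305 and 0.377 for replicates 1, 2 and 3 over 272 introns), but so did replicates 2 and 3 across numbers (0.342 and 0.369), while replicate 1 correlated with the others at -0.409 to -0.515. The numbers come from the labels, and the replicate number was also fitted as a block. Scripts ran in Python 3.11.15 (scipy 1.17.1, pandas 2.3.3, numpy 2.4.6; figures by matplotlib 3.10.9). The tests were checked on simulated data with fixed seeds. These were drawn without differences between replicates beyond random scatter, so that the check does not cover the offset of replicate 1.

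The balance of reads at the intact 5′SS and 3′SS could not be tested, because the tables used here give only their mean. The named genes are the 8 members, with each alternative junction that passed the threshold or had the largest FAnS of its intron, and *ATG38* and *BET4* were named after their values were seen. The members, lists and tests were chosen with earlier results of these data known.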

Additional observations from a re-analysis of the deposited data

How the results depend on the processing

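The direction and the call of 8 host introns, all called ones but *ASC1*, were kept under all 12 alternatives for annotated splicing, including DESeq2, limma, the replicate block and the mean of both boundaries as the unspliced count, which was added after seeing the data. Over all introns, 1 was higher with the replicate block, 2 without replicate 1 of both strains, and 0 to 1 when 1 library was left out, against 0. *RPL7A* intron 1 ranged over -0.79 to 0.19 when 1 library was left out, with 0.19 reached without *prp18Δupf1Δ* replicate 2. For total reads, 8 host introns were lower with DESeq2 size factors, 8 with the replicate block, 9 without replicate 1 of both strains, and 2 to 6 when 1 library was left out. Over all introns, 77 were lower and 82 higher with the block, 92 and 110 without replicate 1 of both strains, and 10 to 42 and 26 to 59 when 1 library was left out, against 30 and 44. *RPL7A* intron 1 ranged over -0.01 (without *upf1Δ* replicate 1) to 0.16 when 1 library was left out, and *RPL7A* intron 2 was at 0.08 with annotated reads alone. For host junctions, 0 fell by DESeq2, 0 without the overhang and mismatch filters and 2 with a minimum of 20 gapped reads, which left 4 that rose, and 1 to 2 fell when 1 library was left out. Over all junctions, 53 fell by DESeq2, 62 without those filters and 46 without replicate 1 of both strains, 122 rose with the minimum of 20 and 118 without replicate 1 of both strains, and 55 to 88 fell when 1 library was left out. The cause was not tested. Uncalled junctions changed sign: with 1 library left out, the pair of *ASC1* shifted by 2 nt ranged over -0.25 to 0.69, the shifted pair of *RPL7A* intron 2 over -0.65 to 0.26, the +9 site of *RPL7B* intron 2 over -0.47 to 0.53 and the +1 site of *TEF4* over -0.65 to 0.49. Without replicate 1 of both strains the last 3 were at 0.17, -0.65 and 0.21, the +9 site was at -0.02 relative to annotated plus unspliced reads, and the +1 site was at 0.06 by DESeq2, 0.03 without the filters and 0.15 with the replicate block. The replicate block kept all 9 host calls of junctions and gave -2.02, -3.01 and -0.95 for the difference between intron 2 and intron 1 of *RPL7A*, *RPL7B* and *RPS22B* (exact paired p = 0.25 each, the smallest that 3 pairs allow). The alternatives with unspliced reads of 1 boundary alone and those for the balance of the boundaries were not run. Counts under 10 reads limit the *ASC1*, *NOG2* and most *EFB1* junctions.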
